A study of Mus musculus with 18 samples.

Results

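The contacts that the mouse cytokine genes Ifng and Il4 make with other chromosomes were compared in naive CD4 T cells. The comparison rests on 4 of the 18 arrays of the study, chosen by their titles: 2 with Ifng as the bait and 2 with Il4 as the bait. Only probes on chromosomes 1 to 9 and 12 to 19 were used (326361 of 384942 probes), because Ifng lies on chromosome 10 and Il4 on chromosome 11. The median of these probes was set to 0 in every array. All 4 arrays were made from primary CD4+ T cells given no treatment, per the labels. The sources used here do not give strain, age or sex of the mice. The other 14 arrays, 2 in each of 7 groups, hold the Ifng bait in Th1 cells, Th2 cells, Th1 cells from Stat4 knockouts and the preadipocyte line 3T3-L1, and the Il4 bait in Th1 cells, Th2 cells and Th2 cells from Stat6 knockouts. They entered the model for its estimate of spread and, where said, as a comparison.

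In 4C, chromatin is crosslinked and cut, DNA ends that lie close together in the nucleus are joined, and the fragments joined to 1 chosen locus (the bait) are amplified and identified. Here HindIII cut the chromatin and the amplified DNA was hybridised against digested genomic DNA, so a high log2 ratio marks DNA recovered with the bait. Ifng encodes interferon gamma, the cytokine that defines T helper 1 cells, and Il4 encodes interleukin 4, the cytokine that defines T helper 2 cells. A naive CD4 T cell has met no antigen and can still become either type. Contacts between chromosomes are in general rarer and weaker than contacts along the bait's own chromosome, and an association of the Ifng locus with the Th2 cytokine locus, which lie on different chromosomes, is known from naive CD4 T cells.

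The baits matched their labels: the highest 500-kb bin of the genome lay on chromosome 10 in both Ifng arrays (log2 ratios 3.51 and 2.83) and on chromosome 11 in both Il4 arrays (2.74 and 2.59). Off those chromosomes the highest bin reached only 0.34 to 0.69. The labels say nothing of separate mice or cultures behind replicates, so p-values reflect how far these arrays differ, a spread that may be technical. The extraction protocol in the labels names other baits and adherent cells, and the design text counts a pooled array that could not be traced. The sources used here do not say whether both baits were amplified from the same ligated DNA.

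Most probes had values near 0 and a small share had high ones, so 2 quantities were followed. The level of a bin is the mean centred log2 ratio of its probes, over 4237 bins of 500 kb with at least 20 probes (median 78). A strong probe, a measure added after the values were seen, is one with a centred log2 ratio above 1.5. The Ifng arrays held 6732 and 6771 strong probes (2.06% and 2.07%), and the Il4 arrays held 4266 and 3881 (1.31% and 1.19%). Both Ifng arrays thus held more strong probes than either Il4 array. The replicates of a bait are not independent in this count, however. Their sorted values matched within 0.011 for 99.986% of probes in the Ifng pair and 99.846% in the Il4 pair. The contrast in counts is thus closer to 1 distribution against 1 than to 2 arrays against 2, and was not tested. Strong probes seldom recurred: 438 were strong in both Ifng arrays (6.51% of those of replicate 1) and 227 in both Il4 arrays (5.32% of those of replicate 1). An Ifng and an Il4 array shared 187 to 211. These were 2.78% to 3.12% of the Ifng array's strong probes and 4.38% to 5.33% of the Il4 array's. Among all probes, 2.06% and 2.07% were strong in the Ifng arrays and 1.31% and 1.19% in the Il4 arrays.

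Over bins, the percent of strong probes was more alike within a bait than between baits in naive cells. Pearson's r over 4237 bins was 0.604 for the Ifng replicates and 0.521 for the Il4 replicates. Between an Ifng and an Il4 naive array it ran from 0.411 to 0.457. These bins share probes, digestion and base composition in all arrays, so the values are a description. The same Ifng arrays reached only 0.255 to 0.310 with Ifng in Th1 cells, 0.052 to 0.069 with Ifng in Th2 cells and -0.021 to 0.018 with Ifng in 3T3-L1. The naive profiles of the 2 baits were thus closer to each other on this measure than the naive Ifng profile was to Ifng in these other cells. The replicates of those groups were themselves little alike, however, at 0.267 for Ifng Th1, 0.091 for Ifng Th2 and 0.292 for 3T3-L1. The values of naive Ifng with Th1 and Th2 cells lay near those of the groups' own replicates, and what lowers them was not tested. By level such an order did not hold for Th1 or Th2 cells, as the ranges overlapped. The naive Ifng arrays reached 0.348 to 0.828 with the naive Il4 arrays. With Ifng in Th1 cells they reached 0.065 to 0.377 and with Ifng in Th2 cells 0.486 to 0.670. With Stat4 knockout Th1 cells the range was 0.502 to 0.577, inside that between baits, and with 3T3-L1 it was -0.115 to 0.263, below it.

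**Figure D1:**
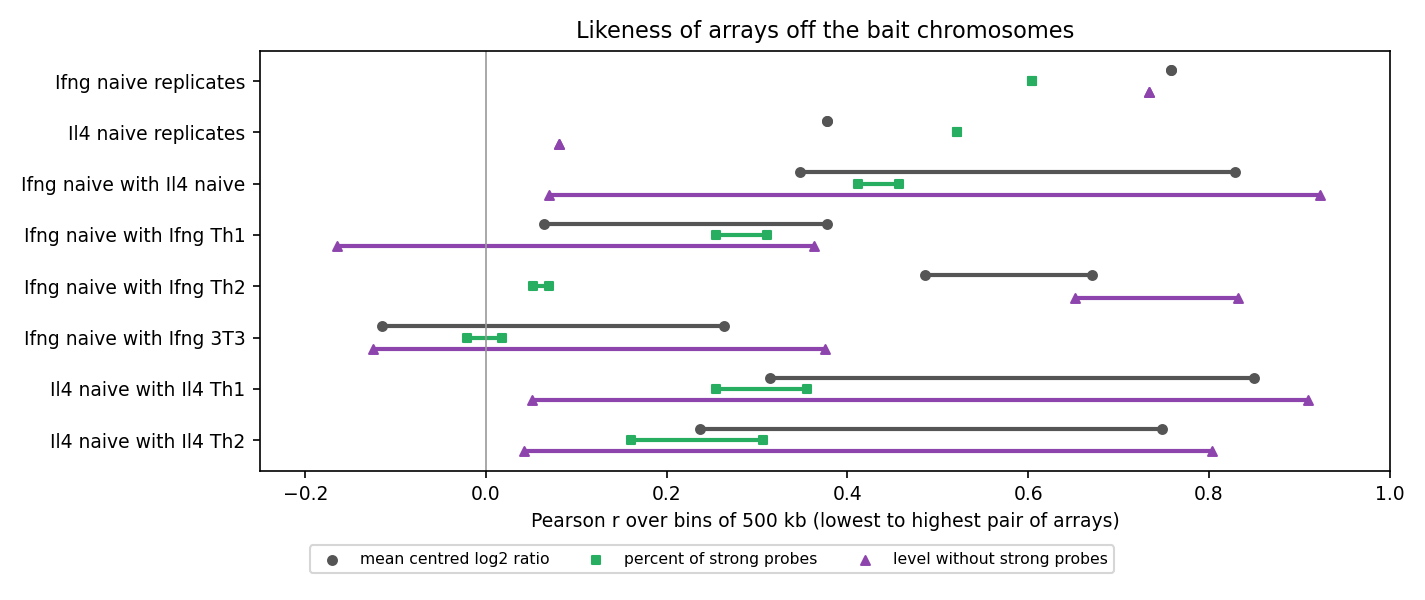
Pearson's r between arrays over 500-kb bins off the bait chromosomes, for the level (grey circles), the percent of strong probes (green squares) and the level without strong probes (purple triangles). A line joins the lowest and the highest pair of arrays of a kind. By strong probes the naive arrays of different baits reach 0.411 to 0.457, and the Ifng naive arrays with 3T3-L1 lie near 0.

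One array stood apart. Il4 naive replicate 1 correlated with the 3 other naive arrays at 0.348 to 0.407 by level and at 0.070 to 0.232 once strong probes were left out, where the 3 others reached 0.734 to 0.922 among themselves. Its bins also spread less (SD 0.069, against 0.135 in Il4 naive replicate 2). By the percent of strong probes it reached 0.411 to 0.521 with the 3 others, which reached 0.441 to 0.604 among themselves. Its serial number belongs to another series than those of the 3 other naive arrays, and results are also given without it.

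A total of 20 of 4237 bins differed in level between the baits (0.472%, limma, Benjamini-Hochberg at 0.05), 19 of them higher for Ifng (0.448%) and 1 higher for Il4 (0.0236%). Without Il4 naive replicate 1 the count was 17 bins, of which 10 were higher for Ifng and 7 for Il4. Leaving out Ifng naive replicate 2 gave 5 bins, and leaving out Il4 naive replicate 2 gave 53. Across all bins, both Ifng arrays lay above both Il4 arrays in 16.1% and below them in 7.17%. Positions are given in mm8, the build inferred from the probe positions, and genes are named only as lying in the same cytogenetic band as a bin, not in the bin.

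The largest difference lay on chromosome 2 from 43500001 to 44500000 in band 2qB, the band that holds Lrp1b, which encodes a lipoprotein receptor. The level was 0.44 and 0.52 in the Ifng arrays and 0.01 and -0.01 in the Il4 arrays. It was high in both Ifng arrays and near 0 in both Il4 arrays, a difference of 0.48 (at its best bin SE 0.066 and limma adjusted p = 1.74e-05). Of its 172 probes, 30 and 36 were strong for Ifng against 3 and 6 for Il4, and 13 were the same probes in both Ifng arrays. The peak was narrow: in the middle bin 22.5% and 28.1% of probes were strong for Ifng, and from 2 to 5 Mb away the highest bin had 4.44%. Without its strong probes the region had levels of -0.08 and -0.05 for Ifng and -0.03 and -0.12 for Il4. The difference that remained without them was 0.01 and did not pass. Each replicate could be left out with the call kept (differences 0.44 to 0.52).

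A region on chromosome 16 from 92500001 to 93500000 lay in 16qC4. That band holds 53 protein-coding genes, of which only the neuronal adhesion gene Dscam is on the gene lists used here. The region's level was 0.60 and 0.61 for Ifng and 0.21 and 0.22 for Il4. Both baits were above 0 here, and the bin from 93000001 to 93500000 was also among the highest 5% of all 4 arrays by level and by strong probes. The difference was 0.39 (SE 0.049, limma adjusted p = 1.37e-06). Strong probes numbered 35 and 28 of 166 for Ifng against 12 and 9 for Il4. The peak had broad shoulders, with up to 11.9% strong probes in an Ifng array from 2 to 5 Mb away.

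On chromosome 8 from 84500001 to 85000000 in 8qC2, the band of Il27ra, which encodes the interleukin 27 receptor that acts in Th1 differentiation, the level was 0.50 and 0.33 for Ifng and 0.01 and -0.10 for Il4. The difference was 0.46 (limma adjusted p = 0.000114). Regions higher for Ifng were named only where the arrays of the 2 baits did not overlap, so that lack of overlap is no added support. Of 92 probes, 16 and 14 were strong for Ifng and 1 and 2 for Il4. On chromosome 14 from 51500001 to 52000000 in 14qC2 the level was 0.46 and 0.39 for Ifng and 0.04 and -0.07 for Il4 (difference 0.44, limma adjusted p = 0.00125). That bin had only 43 probes, of which 6 and 5 were strong for Ifng and 1 in each Il4 array. The calls on chromosomes 2, 16, 8 and 14 held with any 1 naive array left out. Without strong probes the differences on chromosomes 16, 8 and 14 were 0.08, 0.08 and 0.16, and none of the named regions then passed. Counts and shares of strong probes come from the same probes and arrays as the level by which regions were picked, so they are no separate support. The share of strong probes relative to the array's average was also tested in the regions named as higher for Ifng. Only 2qB and 6qD3 passed on it (limma adjusted p = 0.00778 and 0.00972). The others had 0.0662 in 16qC4, 0.319 in 8qC2, 0.853 in 14qC2, 0.669 in 12qF1, 0.210 in 15qD1 and 0.414 in 18qE3.

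**Figure D2:**
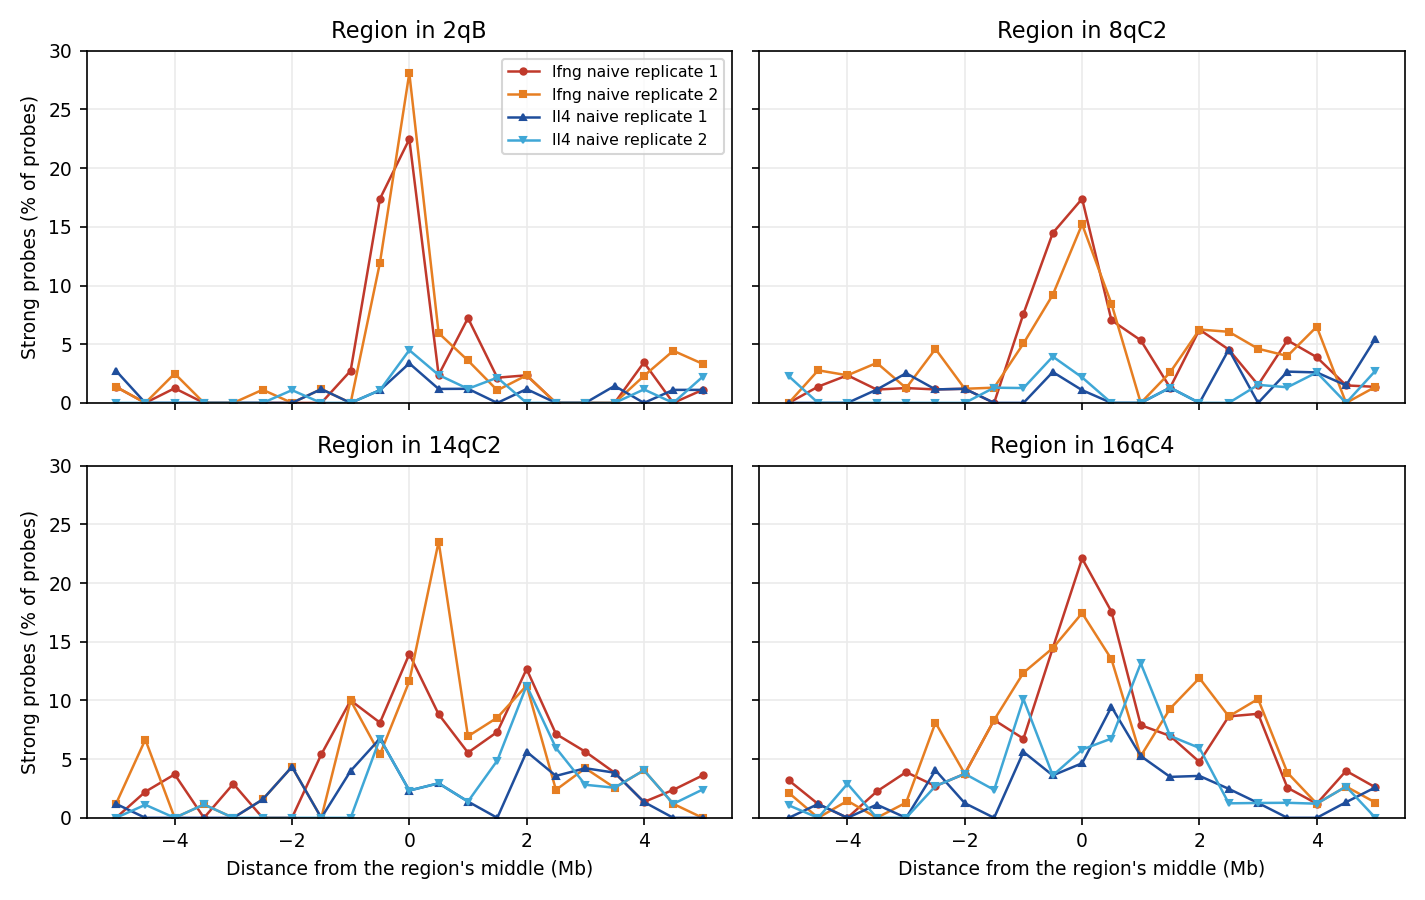
Percent of strong probes in 500-kb bins against the distance in Mb from the middle of 4 regions higher for Ifng, 1 line per naive array. In 2qB the Ifng arrays peak at 22.5% and 28.1% where the Il4 arrays have 3.37% and 4.49%. In 14qC2 an Il4 array reaches 11.3% at 2 Mb from the middle, where the Ifng arrays have 12.7% and 11.3%.

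A further 4 named regions were higher for Ifng with calls that were lost without single arrays. In 15qD1, the band of the growth regulator Myc, chromosome 15 from 59000001 to 60000000 had levels of 0.36 and 0.46 for Ifng and 0.11 and 0.07 for Il4, with 25 and 28 of 167 probes strong against 7 and 5. Its difference was 0.32 (limma adjusted p = 0.0172), and 0.28 without Ifng naive replicate 2 (0.0572). In 6qD3, chromosome 6 from 98500001 to 99500000 had levels of 0.31 and 0.35 for Ifng and -0.01 and 0.06 for Il4, and its difference of 0.31 (limma adjusted p = 0.00125) was 0.28 without the same array (0.0599).

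In 12qF1, the band of Bcl11b, a transcription factor that T cells need for their identity, chromosome 12 from 107500001 to 108000000 had levels of 0.43 and 0.46 for Ifng and -0.02 and 0.19 for Il4. The difference was 0.36 (limma adjusted p = 0.00185), and it was 0.25 without Il4 naive replicate 1 (0.0546) and 0.34 without Ifng naive replicate 2 (0.0583). In 18qE3, the band of the calcium-regulated factor Nfatc1, chromosome 18 from 81500001 to 82000000 had levels of 0.29 and 0.69 for Ifng and 0.15 and 0.08 for Il4. Here the Ifng replicates lay far apart, and the difference of 0.38 (limma adjusted p = 0.0349) was 0.18 without Ifng naive replicate 2 (0.586) and 0.35 without Il4 naive replicate 2 (0.0584).

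Higher for Il4 was 1 bin, on chromosome 5 from 34000001 to 34500000 in 5qB2. Its level was 0.26 and 0.23 for Il4 and 0.01 and 0.03 for Ifng. The difference was -0.22 (Ifng minus Il4, SE 0.047, limma adjusted p = 0.0361), about as large without any 1 array but past the threshold only when Il4 naive replicate 2 was the one left out (adjusted p = 0.0330, against 0.136 to 0.159 for the 3 others). Strong probes numbered 6 and 5 of 68 for Il4 and 1 and 2 for Ifng. By its share of strong probes relative to the array's average, 6.75 and 6.18 for Il4 and 0.71 and 1.42 for Ifng, the bin passed (limma adjusted p = 0.0345). That share comes from the same probes and arrays as the level, so it is no separate support.

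The next bins in order of p did not pass the test. In 9qF3, the band of Eomes, a factor of Th1 and cytotoxic cells, and of Ccr4, a receptor of Th2 cells, chromosome 9 from 110500001 to 111000000 had levels of 0.32 and 0.55 for Il4 and 0.11 and 0.20 for Ifng (limma adjusted p = 0.0720). In 17qB1, which holds the cytokine genes Tnf and Lta and the tubulin gene Tubb5, chromosome 17 from 32000001 to 32500000 had 0.18 and 0.31 for Il4 and 0.02 and 0.04 for Ifng (adjusted p = 0.0768). In 19qA, the band of the T cell surface genes Cd5 and Cd6, of the B cell surface gene Ms4a1 and of Ptgdr2, a prostaglandin receptor of Th2 cells, chromosome 19 from 4500001 to 5000000 had 0.28 and 0.44 for Il4 and 0.12 and 0.17 for Ifng (adjusted p = 0.0996). In all 3 bins both Il4 arrays lay above both Ifng arrays. Without Il4 naive replicate 1, the array with the smaller spread, these 3 passed, with adjusted p of 0.00458, 0.0384 and 0.0336. The fifth, on chromosome 17 from 31000001 to 31500000 in 17qA3.3, had levels of 0.29 and 0.46 for Il4 and 0.15 and 0.22 for Ifng (adjusted p = 0.520).

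**Figure D3:**
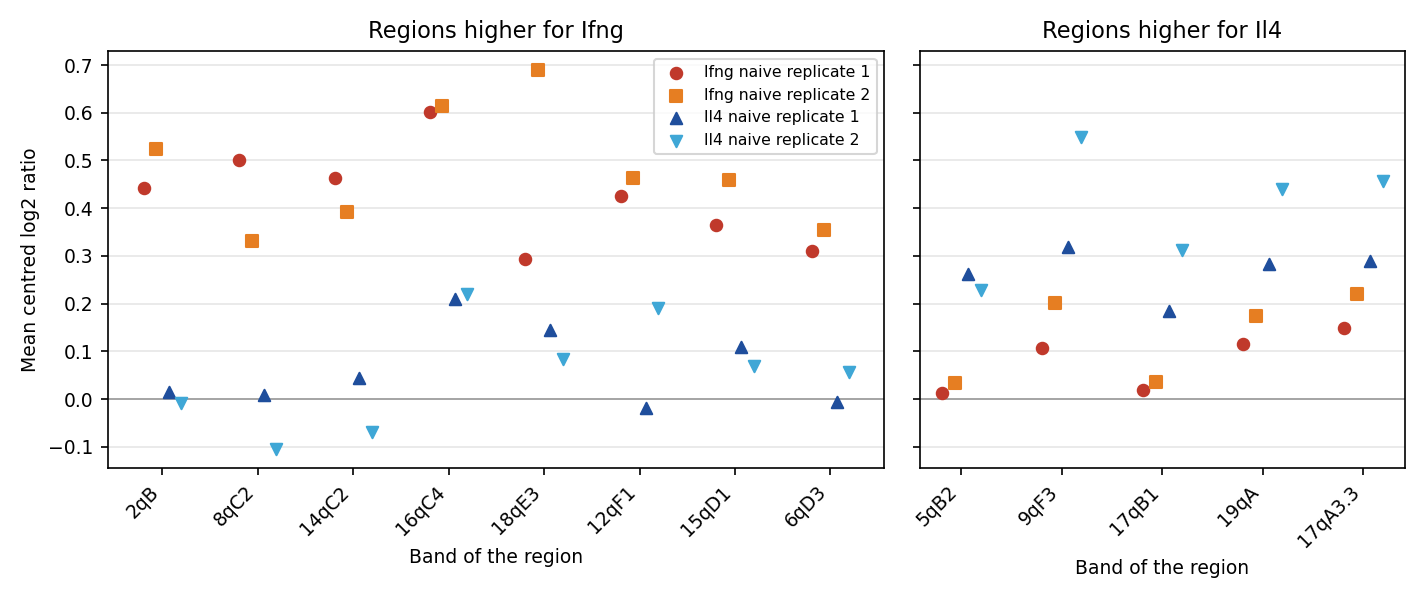
Mean centred log2 ratio of each named region, 1 marker per naive array, labelled by band. On the left are the 8 regions higher for Ifng, in which both Ifng arrays (circles and squares) lie above both Il4 arrays (triangles). That lack of overlap was a condition of their naming. On the right are the 5 named as higher for Il4, of which only 5qB2 passed the test.

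Over whole cytogenetic bands, 3 of 334 differed in level (0.898%), each higher for Ifng. Band 8qC2 had 0.17 and 0.13 for Ifng and -0.00 and 0.02 for Il4 (difference 0.14, limma adjusted p = 0.00707). Band 2qC1.2 had 0.11 and 0.24 for Ifng and -0.00 and -0.04 for Il4, and 16qC4 had 0.26 and 0.31 for Ifng and 0.08 and 0.20 for Il4 (both adjusted p = 0.0370). Without Il4 naive replicate 1 band 8qC2 kept its call (adjusted p = 0.0438), while 2qC1.2 (0.0724) and 16qC4 (0.195) did not. Without Ifng naive replicate 1 the only band left was 2qC1.2 (8qC2 then had 0.0768), and without Ifng naive replicate 2 it was 8qC2. No chromosome as a whole passed the test on level (0 of 17, lowest limma adjusted p 0.177, 1 at an unadjusted p under 0.05).

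Genes of T cell programmes were looked up by band, and their counts stand beside the 3 of 334 bands (0.898%) called among all. Of 24 genes of the Th1 programme, 17 could be placed, in 14 bands, and 1 band was higher for Ifng, that of Il27ra. Of 24 genes of the Th2 programme, 15 were placed in 13 bands, and none of those bands passed. The median difference between the baits was 0.015 over Th1 bands and 0.017 over Th2 bands, beside 0.013 over all 334 bands. The band of Gata3, the master regulator of Th2 cells, had 0.04 and 0.10 for Ifng and 0.01 and -0.01 for Il4 (adjusted p = 0.239). The bands of 22 placed naive and pan-T genes (19 bands, median difference 0.022) and of 19 activation and cytokine receptor genes (18 bands, median 0.034) held no call, and neither did those of Th17 and Treg, B cell, myeloid, fibroblast and adipocyte, or housekeeping genes. Among neuronal genes, set beside the T cell lists as genes of another cell type, 1 of 7 bands was called, that of Dscam. Dscam is 1 of 53 protein-coding genes in that band, so the call is not one of a neuronal locus.

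Contacts common to the baits were sought as bins among the highest 5% of each array. A total of 89 bins were high in both Ifng arrays (2.10%) and 85 in both Il4 arrays (2.01%), and 26 were high in all 4 (0.614%). The 26 make up 29.2% of the Ifng bins and 30.6% of the Il4 bins. A further 35 bins were high in both Ifng arrays and in neither Il4 array (0.826% of all bins), and 29 the other way round (0.684%). These classes rest on the cut. The 29 had mean levels of 0.14 and 0.21 in the Ifng arrays, below cuts of 0.22 and 0.28 but above the 0.03 of all bins. In the Il4 arrays the 35 had 0.03 and 0.14, where the cuts were 0.13 and 0.27 and all bins had 0.01 and 0.02. Without Il4 naive replicate 1 the shared bins numbered 46, and without Ifng naive replicate 2 they numbered 44. A shared bin must be high in every array kept, so leaving out any array can only keep or raise the count. The rise therefore says nothing about a single array.

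The shared region with the highest lowest value lay on chromosome 5 from 115000001 to 115500000 in 5qF, the band of Crlf2 and Il31, a receptor and a cytokine of type 2 immunity, and of the ribosomal housekeeping gene Rplp0. Its level was 0.30 and 0.35 for Ifng and 0.31 and 0.53 for Il4, and 6, 7, 8 and 8 of its 71 probes were strong. On chromosome 15 from 79500001 to 80500000 in 15qE1, the band of Il2rb, which encodes a receptor chain for interleukins 2 and 15, the level was 0.37 and 0.41 for Ifng and 0.26 and 0.42 for Il4. It held 15 and 11 strong probes of 142 for Ifng and 13 and 9 for Il4. The 5qF bin and, in 15qE1, the bin from 80000001 to 80500000 were also among the highest 5% of every array by strong probes.

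In 3qF1, the band of the interleukin 6 receptor gene Il6ra, chromosome 3 from 89000001 to 89500000 had 0.25 and 0.31 for Ifng and 0.26 and 0.39 for Il4. In 17qC, the band of Satb1, which encodes a chromatin organiser of T cells, chromosome 17 from 46500001 to 47000000 had 0.28 and 0.43 for Ifng and 0.22 and 0.36 for Il4. In 8qE1, the band of the Th2 factor Maf, chromosome 8 from 125000001 to 125500000 had 0.22 and 0.28 for Ifng and 0.25 and 0.36 for Il4. The last held few strong probes (2, 2, 4 and 1 of 66), and without them its level was 0.15 and 0.22 for Ifng and 0.11 and 0.34 for Il4. The remaining 5 named regions lay in 12qF1 and again 15qE1, in 2qB, the band of Lrp1b, and in 7qE2 and 16qB3, which hold no gene of the lists, with levels from 0.22 to 0.53 over the 4 arrays.

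**Figure D4:**
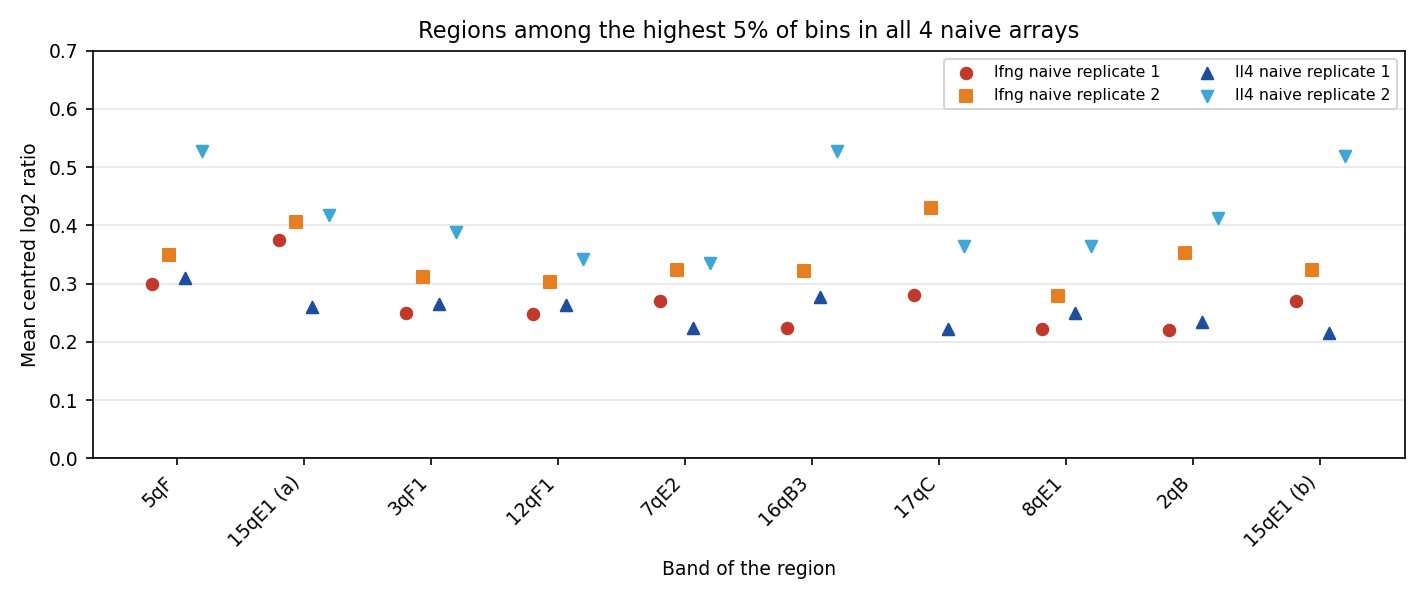
Mean centred log2 ratio of the 10 named regions that are among the highest 5% of bins in every naive array, 1 marker per array, labelled by band with a and b for the 2 regions of 15qE1. Values run from 0.22 to 0.53, and the Ifng and Il4 arrays overlap in each of the 10 regions.

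Ranked by the percent of strong probes, 14 bins were high in all 4 arrays (0.33%), and 7 of these were also shared by level. Those shared by both measures lay in 5qF, 7qE2, 12qF1, 15qE1, 17qC and, with 2 bins, 16qC4. Ranked by the level without strong probes, 11 were shared. The bins shared by level and by strong probes were thus only in part the same.

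In cells that had not been used to choose them, the 26 shared bins were high in varying number, where each array has 212 high bins of 4237. They numbered 14 to 18 in the Il4 Th1 arrays, 9 to 13 in the Il4 Th2 arrays, 9 to 12 in the Ifng Th2 arrays and 8 in each Ifng Th1 array. In 3T3-L1, which is no T cell, 0 and 1 were high. Of the 29 bins past the cut in both Il4 naive arrays and neither Ifng naive array, 15 were high in each Il4 Th1 array. In the Ifng Th1 arrays 2 to 6 of them were high. Of the 35 bins past it in both Ifng naive arrays and neither Il4 naive array, 4 to 7 were high in the Ifng Th1 arrays. In the Il4 Th1 arrays 6 to 8 of these were high. So in Th1 cells the bins of Il4 were found more with the Il4 bait, and those of Ifng were found with either bait in like number. The 2 Ifng Th1 arrays correlated over bins at only 0.169 by level. In Th2 cells the bins of Il4 numbered 7 to 13 with Il4 and 3 to 4 with Ifng, and those of Ifng 5 to 6 and 5. In the knockout cells they were 11 to 14 and 5 to 6 for Il4, and 5 to 9 and 9 to 10 for Ifng. No test was made of these counts.

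Because the Ifng arrays held more strong probes in all, the share in a chromosome was also divided by the share over the whole array, called the relative share, in which 1 is the array's average. Without that scaling 56 bins differed in percent of strong probes (1.32%), 54 higher for Ifng (1.27%) and 2 for Il4 (0.0472%). With it 4 bins differed (0.0944%), 2 in each direction (0.0472% each). The side on which most bins fell thus depends on this scaling. The total share behind it is not independent between the replicates of a bait, as said above. The 4 became 10 without Il4 naive replicate 1 (9 higher for Il4), 5 without Ifng naive replicate 1 (each higher for Ifng), 2 without Il4 naive replicate 2, and 0 without Ifng naive replicate 2, with the serial series as a block or with the 4 naive arrays alone.

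By relative share 3 of 17 chromosomes differed (17.6%), 1 higher for Ifng (5.88%) and 2 for Il4 (11.8%), and chromosome 19 differed most. It is the smallest of the mouse autosomes and rich in genes. The relative share there was 2.11 and 2.07 for Il4 and 1.15 and 1.19 for Ifng. The Il4 arrays had the highest value of any chromosome there, and the difference, Ifng minus Il4, was -0.91 (SE 0.070, limma adjusted p = 8.13e-12). It was -0.89 to -0.94 with any 1 naive array left out. In unscaled terms 255 and 227 of 9246 probes were strong for Il4 and 220 and 229 for Ifng, so the chromosome kept its number of strong probes for Il4 while all 17 chromosomes together held fewer. By relative share both Il4 arrays exceeded both Ifng arrays on chromosome 19 in 43 of 117 bins (36.8%, against 11.9% of all bins). The reverse held in 3 (2.56%, against 16.5% of all bins).

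Chromosome 17, which carries the major histocompatibility complex, was also relatively higher for Il4, at 1.43 in both arrays against 1.17 and 1.03 for Ifng (difference -0.33, limma adjusted p = 0.00914). Chromosome 18 was relatively higher for Ifng, at 1.02 and 1.05 against 0.73 and 0.84 for Il4 (difference 0.25, adjusted p = 0.00914). Without Il4 naive replicate 1 the differences were -0.33 and 0.20 and neither passed (adjusted p 0.0828 and 0.0924), and 5 chromosomes were called, of which chromosome 19 was 1. Without Ifng naive replicate 2 chromosome 19 alone was called, and without Il4 naive replicate 2 chromosomes 19 and 18 were.

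**Figure D5:**
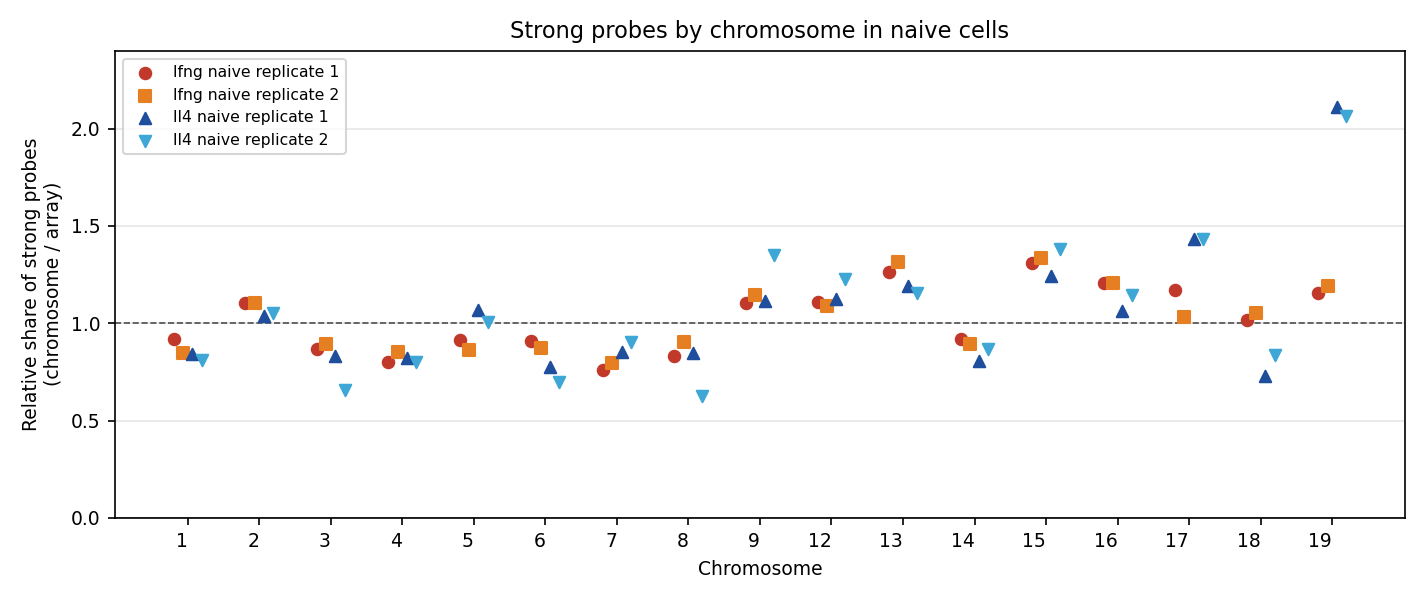
Relative share of strong probes on each of the 17 chromosomes, 1 marker per naive array. The dashed line at 1 is the array's own average. On chromosome 19 the Il4 arrays stand at 2.11 and 2.07 and the Ifng arrays at 1.15 and 1.19.

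Among bands 14 of 334 differed by relative share (4.19%), 9 higher for Il4 (2.69%) and 5 for Ifng (1.5%). For Il4 these include 4 bands of chromosome 19. In 19qC3, the band of the B cell gene Blnk, the relative share was 3.20 and 3.21 for Il4 and 1.47 and 1.53 for Ifng (difference -1.71, limma adjusted p = 0.0123), and in 19qA, the band of Cd5, Cd6, Ms4a1 and Ptgdr2, it was 2.76 and 2.86 against 1.25 and 1.22 (-1.57, adjusted p = 0.0133). Off that chromosome 5qB2 had 3.27 and 4.79 for Il4 and 1.38 and 0.69 for Ifng, 17qA3.3 had 4.13 and 5.42 against 2.25 and 1.95, and 2qH1 had 2.69 and 3.05 against 1.46 and 1.80. For 2 Th1 genes the band was relatively higher for Il4: that of Runx3, a factor that represses Il4 in Th1 cells, with 3.33 and 3.58 against 2.06 and 1.505 (adjusted p = 0.0456), and that of the chemokine receptor gene Cxcr6 (9qF4) with 3.22 and 3.18 against 1.77 and 1.62 (adjusted p = 0.0347).

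For Ifng the band of Il27ra, 8qC2, had a relative share of 3.02 and 2.56 against 0.71 and 0.89 for Il4 (difference 1.99, limma adjusted p = 0.0123). The band of Myc, 15qD1, had 2.64 and 2.83 against 1.06 and 1.89 (adjusted p = 0.0347). Bands 2qC1.2, 13qA2 and 6qD3 completed the 5. Of these 14 band calls 9 held without Il4 naive replicate 1, 1 without Ifng naive replicate 1, and none without Ifng naive replicate 2 or Il4 naive replicate 2. The differences moved less than the calls: without these 2 arrays in turn 19qC3 had -1.74 and -1.70, 19qA had -1.55 and -1.52 and 8qC2 had 2.22 and 2.08. With the serial series as a block 11 of the 14 kept their call, while the bands of Runx3 and Myc (both adjusted p = 0.0942) and 19qC2 did not, and with the 4 naive arrays alone none did. The replicate number as a block kept 12, without the band of Runx3 (0.0574) and 19qC2.

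Strong probes followed gene density for both baits. In the 84 bands with the fewest genes (up to 3.65 per Mb) the relative share was 0.58 and 0.53 for Ifng and 0.60 and 0.48 for Il4. In the 84 bands with the most (from 10.9 per Mb) it was 1.26 and 1.34 for Ifng and 1.53 and 1.75 for Il4. All 4 arrays had the higher share in the gene-rich bands, and both Il4 arrays ended above both Ifng arrays, a difference that was not tested. In the last 5 Mb of the chromosomes the relative share was 1.29 and 1.37 for Ifng and 1.34 and 1.40 for Il4, against 0.90 to 0.97 in the first 5 Mb, the end that carries the centromere in mouse chromosomes.

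Giemsa staining separates gene-rich light bands from gene-poor dark ones. The level of bins in light bands exceeded that in dark bands by 0.04 and 0.06 in the Ifng arrays and by 0.01 and 0.07 in the Il4 arrays. The baits overlapped, with 0.05 ± 0.02 for Ifng and 0.04 ± 0.04 for Il4 (SD, n = 2 each, exact permutation test two-sided p = 1.0). With 2 arrays against 2 that test cannot go below 0.333.

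The difference between baits in naive cells was then set against that in Th1 and in Th2 cells, with the difference itself tested in the model. A gap can also arise from the other cells' own bait difference: in Th1 cells 56 bins were higher for Il4 (1.32%) and 6 for Ifng (0.142%). Against Th1 cells 25 of 4237 bins passed (0.590%) and against Th2 cells 4 did (0.0944%), each more in favour of Ifng in naive cells. These tests share their naive arrays with the calls above, and 8 of the 19 bins higher for Ifng in naive cells passed against Th1 and 4 against Th2. The limits are those of the partner arrays: off the bait chromosomes Ifng Th1 replicate 2 correlated over probes with Il4 Th2 replicate 2 at 0.406 and with its own replicate at 0.070, and the sorted values of the replicates matched within 0.011 for 42.8% of probes in the Ifng Th1 pair and 10.8% in the Il4 Th2 pair, against over 99% in each other pair. The count against Th1 was 8 without Il4 naive replicate 1, 613 without Il4 naive replicate 2, 44 and 13 without Ifng naive replicates 1 and 2, 6 and 5 without Ifng Th1 replicates 1 and 2, and 12 without either Il4 Th1 array. That against Th2 was 2 without Ifng naive replicate 2, 1 without Ifng Th2 replicate 2, 0 without Il4 Th2 replicate 1 and 2 without Il4 Th2 replicate 2.

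The Ifng regions in 2qB and 16qC4 differed more between the baits in naive cells than in Th1 or Th2 cells. For 2qB the bait difference was 0.05 in Th1 and 0.09 in Th2 cells against 0.48 in naive cells, and both gaps passed (limma adjusted p = 0.00526 against Th1 and 0.0139 against Th2). For 16qC4 it was -0.04 in Th1 and 0.04 in Th2 against 0.39 in naive cells (adjusted p = 0.000686 and 0.00335). In both regions the gap to Th1 kept its call with any 1 of 8 arrays left out. With arrays scaled by their median absolute deviation the gaps were 0.31 and 0.26 in 2qB (adjusted p = 0.108 against Th1 and 0.271 against Th2) and 0.21 and 0.22 in 16qC4 (0.236 and 0.341), and none passed. With quantile normalization those of 16qC4 passed (0.0128 and 0.0161) and those of 2qB did not (0.0560 and 0.0571). With the serial series as a block both gaps to Th1 passed and both gaps to Th2 did not (0.345 in 2qB and 0.0771 in 16qC4). The gap to Th2 lost it for 2qB without Ifng naive replicate 2, Ifng Th2 replicate 2 or either Il4 Th2 array (adjusted p up to 0.263), and for 16qC4 without Il4 Th2 replicate 1 (0.0534).

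The knockout cells, which have no partner of the other bait and were not tested, were high in some of these regions. In 8qC2 the level was 0.51 and 0.42 with the Ifng bait in Stat4 knockout Th1 cells and 0.33 and 0.32 with the Il4 bait in Stat6 knockout Th2 cells, so there the Il4 bait too was above its naive levels of 0.01 and -0.10. In 14qC2 it was 0.48 and 0.20 with the Il4 bait in Stat6 knockout cells and 0.13 and 0.17 with the Ifng bait in Stat4 knockout cells. In 2qB it was -0.03 and 0.06 with the Il4 bait and 0.14 and 0.01 with the Ifng bait in these cells.

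In 5qB2, higher for Il4, the baits differed by -0.22 in naive cells, -0.20 in Th1 cells and -0.02 in Th2 cells, and neither gap passed (limma adjusted p = 0.916 and 0.959). Of the 19 bins higher for Ifng in naive cells, 7 were above 0 in Th1 cells (36.8%, beside 49.1% of all bins) and 13 in Th2 cells (68.4%, beside 68.5% of all bins). The direction seen in naive cells was thus not more common there than among all bins.

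Chromosome 19 was relatively higher for Il4 in the other T cells too, though by less. The difference in relative share, Ifng minus Il4, was -0.35 in Th1 cells (limma adjusted p = 0.000601) and -0.56 in Th2 cells (2.48e-07), against -0.91 in naive cells. The gap from naive cells passed against Th1 (-0.57, SE 0.099, adjusted p = 7.5e-05) and against Th2 (-0.35, SE 0.099, adjusted p = 0.0232). Over the other groups the relative share on chromosome 19 ran from 1.17 to 1.45 in the 6 Il4 arrays and from 0.84 to 1.20 in the 8 Ifng arrays.

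The loci of the other bait were looked up in the same arrays, although they lie on the chromosomes left out above. In the Ifng arrays the bin that is highest for the Il4 bait, on chromosome 11 from 53000001 to 53500000, had levels of 0.11 and 0.07 (percentiles 81.7 and 66.6 among the 4237 bins). The next bin, to 54000000, had 0.17 and 0.29 (percentiles 91.0 and 95.9). In the Il4 arrays the bin of chromosome 10 from 117500001 to 118000000 had 0.12 and 0.16 (percentiles 93.9 and 84.9). All 6 values lay above the median bin, and 1 of them reached the highest 5% of its array. No test was made of them.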

How the data were processed

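Contacts were read on 2-colour arrays of 18 samples, 4 of them used here as the groups compared. Per the labels' protocols, 4C DNA was labelled with Cy5 and digested genomic DNA with Cy3. The deposited values were read as log2 ratios of the probes. For their base (2 was assumed), the scanner software, the background correction and the genome build no source used here states a value (not given in the sources used here). The build was inferred as mm8, since probes lay beyond the end of 0 of 21 chromosomes (mm7 11, mm9 5, mm10 8). In both naive pairs the sorted values of the replicates were equal within 0.011 for over 99% of probes (99.986% and 99.846%), and no source used here says why.

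From each array the median of probes on chromosomes 1 to 9 and 12 to 19 was subtracted. Means were taken over 500-kb bins holding 20 or more probes, over bands and over chromosomes, with no loess or quantile step. The bait difference was tested by limma 3.58.1 under R 4.3.3 (all 18 arrays in 9 groups, 9 residual degrees of freedom, two-sided, Benjamini-Hochberg at 0.05), with trend for shares of strong probes in bins and bands. Bands came from circlize 0.4.16, and genes from RefSeq's table of GRCm38.p6, another build, left out within 500 kb of a band's edge. Adjacent called bins were merged: a region's difference is the mean over its bins, its SE and adjusted p those of its best bin. Named were at most 8 regions a direction with the largest change among called bins whose arrays do not overlap, the 5 with the smallest p where fewer than 5 bins passed, 10 shared regions by their lowest value and 5 bands a direction by p, plus the bands of the fixed lists' genes. The comparison, the lists and the rules were chosen with earlier results of these data known.

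In data simulated for the bait difference over 4237 bins, changes of 0.4 were recovered in 99% of 100 bins and changes of 0.2 in 55%, and 8.33% of calls were false. The simulated noise was normal, independent and of the same spread in every array for a given bin. Real arrays differ in spread, so these rates may not hold for them. The number of arrays limits the precision. Replicate numbers were tested as a block: deviations of arrays with the same number correlated at 0.453 by level and -0.0016 by percent of strong probes, and nothing in the labels ties them. Other software was matplotlib 3.10.9, scipy 1.17.1, pandas 2.3.3 and numpy 2.4.6 under Python 3.11.15. Alternatives were bin size, the median of probes, scaling, eBayes settings, blocks, left-out arrays and groups, and, chosen after seeing the data, measures by strong probes and left-out arrays for the comparisons with Th1 and Th2.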

Additional observations from a re-analysis of the deposited data

Results flagged for a closer look

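The results below were picked out because the difference between the baits in naive cells differed from that in Th1 or Th2 cells by a test of that difference in limma. In Th1 cells the bait difference in level was itself -0.21 in 14qC2, -0.13 in 12qF1 and -0.11 in 15qD1, which adds to the gaps there. It was 0.05 in 2qB, -0.04 in 16qC4 and -0.05 in 6qD3, and none of these 6 passed. In level, the gap (naive minus Th1) was 0.43 in 2qB on chromosome 2, 0.65 in 14qC2, 0.43 in 16qC4, 0.49 in 12qF1, 0.43 in 15qD1 and 0.36 in 6qD3. With each of the 8 arrays of the test left out in turn, those in 2qB, 14qC2, 16qC4 and 12qF1 passed each time, that in 6qD3 was lost without Ifng Th1 replicate 2, and that in 15qD1 was lost without any 1 Th1 array of either bait. The gap to Th2 cells was 0.39 in 2qB, 0.50 in 8qC2, 0.35 in 16qC4 and 0.42 in 12qF1, and the last passed in only 1 of 8 such fits. None of these gaps to Th1 or Th2 passed with arrays scaled by their median absolute deviation. The gap to Th2 in 8qC2 was also lost without Ifng naive replicate 1, Ifng Th2 replicate 2 or Il4 Th2 replicate 1.

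In relative share of strong probes the gap was -0.57 to Th1 and -0.35 to Th2 cells on chromosome 19, and 0.38 to Th1 cells on chromosome 18. In band 13qA2 it was 1.82 to Th2 cells (adjusted p = 0.0313), and in band 2qH1 it was -2.19 to Th1 cells (adjusted p = 0.0255). In 2qH1 the bait difference was -1.24 in naive cells and, not passing, 0.95 in Th1 cells (adjusted p = 0.0984).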

How the results depend on the processing

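The 20 bins that differed in level became 8 with scaling by the median absolute deviation, 8 with quantile normalization, 7 with the serial series as a block (all 7 higher for Ifng), 4 with the 4 naive arrays alone, 10 without the Ifng Th1 and Il4 Th2 groups, 0 with the median of probes, 0 without strong probes, 56 by percent of strong probes, 4 by their relative percent, 0 by the relative percent of probes above 2, and 408 with every chromosome in the fit, where the baits' own chromosomes were added and 5016 bins tested. Within 1 serial series 28 bins passed, 16 higher for Ifng and 12 for Il4. By the relative percent of probes above 1 they were 16, with 8 in each direction. The 3 bands became 0 with the median of probes, either scaling, the serial series as a block, the 4 naive arrays alone or without strong probes, 5 with trend and robust settings, 1 without the Ifng Th1 and Il4 Th2 groups, and 14 by relative percent. The 0 chromosomes became 6 within 1 serial series and 3 by relative percent. Against Th1 the 25 bins became 0 scaled by the median absolute deviation, 2 with quantile normalization, 7 with trend and robust settings and 16 with the serial block. Against Th2 the 4 became 0, 1 and, with the serial block, 0. The 26 shared bins became 17 by the median, 5 at the highest 2%, 82 at 10%, 2 by a binomial test of the highest probes, 14 by percent of strong probes and 11 without them. With 1 array left out in turn, counts ran from 5 to 53 for bins, 1 to 4 for bands, 0 to 0 for chromosomes, 5 to 613 against Th1, 0 to 6 against Th2 and 34 to 46 for shared bins. The arms then hold 1 array assumed to vary like the others, and the count of shared bins can only stay at 26 or rise. The replicate number as a block, which no label pairs, gave 22 bins (19 of the 20 kept) and 2 bands. Of 16 named regions and bands none changed direction under the settings run. Where the arrays of the 2 baits do not overlap, leaving out 1 array cannot change the direction, so that is no added support. With the 4 naive arrays alone 8 of the 16 were weaker in that they lost their call, and without strong probes 12 were. The difference between baits in the Giemsa contrast of levels ran from 0.004 to 0.007. In percent of strong probes it was 0.065, and in relative percent it was -0.15, with 0.30 in both Ifng arrays and 0.39 and 0.50 in the Il4 arrays. The causes of these shifts were not tested beyond what a setting itself removes.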

Other observations

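Levels without strong probes gave no call between the baits in any bin, band or chromosome (0 of 4237, 0 of 334 and 0 of 17 by limma, with 38, 0 and 0 at an unadjusted p under 0.05). In those levels Ifng naive and Il4 naive arrays correlated over bins at up to 0.922, above the 0.734 of the Ifng replicates. Between the Ifng Th2 and the Ifng naive arrays r was 0.651 to 0.832 without strong probes and 0.052 to 0.069 by the percent of strong probes. The Ifng Th2 replicates themselves had 0.778 and 0.091 on these measures. The rank correlation of strong-probe share with gene density over 334 bands was 0.509 and 0.546 in the Ifng naive arrays and 0.449 and 0.518 in the Il4 naive arrays. In the Ifng Th2 arrays it was 0.041 and 0.023, and in 3T3-L1 0.003 and 0.076. Genes and bands share their neighbourhoods, so these are descriptions, and the cause was not tested.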
